A study of Homo sapiens with 8 samples.

Results

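Constitutive promoter sites were stretches of accessible chromatin that had a peak in every library of the experiment and lay at the start of a protein-coding gene. The peak lists of all 8 libraries were merged, touching intervals were joined, and a library held a site if any of its intervals overlapped it. Of 547779 merged sites, 60324 were held by all 8 libraries, and 9725 of these had their midpoint within 1 kb of the point where an annotated protein-coding gene begins (its transcription start site, TSS). These 9725 sites are the members described here. They were therefore chosen by the presence of a peak in all libraries and by position, so neither property is a finding about them. The TSS of a gene was its outermost annotated start, which for some genes is not the start in main use.

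Accessibility was read by ATAC-seq in U2OS, a human osteosarcoma cell line. Reads in this assay come from DNA that nucleosomes leave free, where the enzyme Tn5 can reach it. The 4 groups, of 2 libraries each, were WT cells and ASH1L-/- cells, either unchallenged or irradiated with 20 J/m2 of UV-C and left for 3 h. ASH1L is a histone methyltransferase, and the comparison asked whether accessibility after UV differs without it. The ASH1L-/- line was raised from individual colonies after CRISPR/Cas9 targeting of the gene, so genotype and clone cannot be told apart. Every culture received DNase ahead of harvest. The titles call the libraries of a group biological replicates and say no more about their origin, so p-values measure the spread between these libraries.

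A promoter of an active gene is kept free of nucleosomes by transcription factors, chromatin remodellers and the transcription machinery, and Tn5 cuts it readily. Many such promoters are rich in CpG dinucleotides and serve genes that every cell uses. UV light leaves lesions that stall RNA polymerase and start repair and stress signalling.

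Members were followed by 2 measures. The first was the percentile of the site's strongest peak, by fold enrichment over local background, among all regions of the same library, so that 100 is the strongest region of a list. The second was the number of bases of the site that the library's intervals covered. A percentile is a place in a list and not an absolute level, and it can fall because other regions rise. The lists held between 158198 and 220783 regions. Library depth was recovered from the lists as mean pileup. Without UV it was 2.10 and 1.74 in WT and 5.87 and 1.39 in ASH1L-/- cells. With UV it was 2.53 and 2.68 in WT and 2.45 and 2.81 in ASH1L-/- cells. The treatments overlapped only through ASH1L-/- unchallenged replicate 1, at 5.87. Every other unchallenged library was shallower than every UV library, so depth largely followed the treatment. The lists also differed by treatment. The median region was 242 to 291 bp wide without UV and 356 to 444 bp with UV, and 77.4% to 80.1% of regions had a q-value below 0.05 without UV, against 85.7% to 94.2% with UV. WT 3 h post UV replicate 2 had the widest regions and the highest share. The part of these list properties in the results that follow was not tested, beyond the centred widths given with them.

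The sequence around the peak summit, or in the third set around a motif up to 137 bases from it, is shown for members on which the results turn. It is given on the plus strand of hg38 and 5′ to 3′. The first set holds some of the named sites that are among the strongest of every list. CCAAT boxes (CCAAT, the NF-Y element) and GC boxes (GGGCGG, bound by SP and KLF factors) are in capitals on either strand. Shown are the 120 bases around the summits of SRGAP2 (chr1:206203033-206203152), ATP5F1B (chr12:56646098-56646217) and MTOR (chr1:11262653-11262772). All of these hold a CCAAT box, but some other strongest sites did not. In such windows TCTN3 and IFT52 held none of the motifs searched, and MAML1 held GC boxes only.
SRGAP2: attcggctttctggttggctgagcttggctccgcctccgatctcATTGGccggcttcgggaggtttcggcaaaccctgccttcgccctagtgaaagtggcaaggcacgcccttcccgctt
ATP5F1B: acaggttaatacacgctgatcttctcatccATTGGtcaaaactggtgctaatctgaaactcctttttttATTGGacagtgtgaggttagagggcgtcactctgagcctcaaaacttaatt
MTOR: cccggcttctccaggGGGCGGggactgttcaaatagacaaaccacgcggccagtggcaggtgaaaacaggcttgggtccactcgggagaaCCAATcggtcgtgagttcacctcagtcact

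The second set shows the 2 sites with the largest fall in percentile after UV, FN3KRP (chr17:82716371-82716490) and AQP1 (chr7:30911580-30911699). AQP1 held a GC box, in capitals, and the FN3KRP window held none of the motifs searched.
FN3KRP: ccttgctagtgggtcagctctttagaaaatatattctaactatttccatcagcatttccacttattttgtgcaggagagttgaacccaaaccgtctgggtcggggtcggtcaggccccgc
AQP1: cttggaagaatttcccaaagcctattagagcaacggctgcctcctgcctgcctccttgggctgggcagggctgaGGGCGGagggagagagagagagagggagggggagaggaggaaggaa

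The letters searched for AP-1 were TGANTCA, where N is any base. A larger share of the sites that rose after UV than of other members held them. The third set shows 27 bases around these letters, in capitals, at sites that rose. They are SBSN (chr19:35528468-35528494), ZBTB16 (chr11:114058384-114058410), KRTAP4-6 (chr17:41140965-41140991), SLAMF9 (chr1:159954366-159954392), FAM25A (chr10:87020177-87020203), GOLGA6L2 (chr15:23447177-23447203) and MMP10 (chr11:102780679-102780705). MMP10, the matrix metalloproteinase stromelysin-2, was chosen after its values were seen. In the order given, the letters lay 44, 0, 23, 64, 112, 137 and 5 bases from the summit. The AP-1 element itself has C or G at N, while KRTAP4-6, GOLGA6L2 and MMP10 have T there.
SBSN: gaagagagggTGAGTCAtggatggaga
ZBTB16: ggcccacccgTGAGTCAcggacagaac
KRTAP4-6: aggaagcttaTGATTCAttgtatgtat
SLAMF9: gtttactcacTGACTCAtgatgccatc
FAM25A: ccgccctcgcTGACTCAcctgtccagc
GOLGA6L2: cacatcagcgTGATTCAgacgaggaca
MMP10: accaacagtaTGATTCAtgcatgtgtt

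Of 19970 protein-coding genes, 10789 (54.0%) had their TSS within 1 kb of a member. A single such TSS lay near 8302 members, and 1140 members (11.7%) had TSSs on both strands. The members had a median merged width of 915 bp, from 163 to 2628 bp, and 56.1% had their midpoint within 200 bp of the TSS. Members made up 50.5% of the promoter sites found in any library. Just inside the distance limit, the 243 members 900 to 1000 bp from the TSS had a median percentile of 72.8. The 228 sites 1000 to 1100 bp away had 70.4. Promoter sites that a single library lacked numbered between 7, for WT 3 h post UV replicate 2, and 305, for ASH1L-/- unchallenged replicate 2.

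Members were strong sites in most lists. In 5430 of them (55.8%) the percentile was above 75 in all 8 libraries, against 33.8% of the gene body sites and 33.9% of the intergenic sites that all 8 libraries held. Only 14 members lay below the median of the list in every library. The SD between the 2 libraries of a group was 3.96 percentile points for the median member. The 10 members with the highest lowest percentile were SRGAP2, MTOR, ATP5F1B, MCM3, AKAP8L, IFT52, CAMTA1, OTUD6B, MAML1 and TCTN3. They include the growth-control kinase MTOR, a subunit of the mitochondrial ATP synthase (ATP5F1B) and a subunit of the replicative helicase (MCM3). The SRGAP2 site, near a gene that regulates membrane protrusion, had 99.97 as its lowest percentile.

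The widest members by mean covered bases were SLC16A7, PTPRK, GGNBP2, H4C16, FMC1-LUC7L2, TBC1D17, ACTB, TMEM263, NAA50 and TOB1. SLC16A7, a monocarboxylate transporter, covered from 1522 to 2022 bp. The narrowest were 2 sites of GTF2IRD2B, with FOSB, DZIP1L and PPP6R2. GTF2IRD2B belongs to a family of near-identical copies, so its intervals are uncertain.

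U2OS was checked against marker genes of cell types. Members lay at 6 of 12 mesenchymal and osteoblast genes, which is near the 54.0% of all protein-coding genes with a member. They were RUNX2, SP7, COL1A1, SPARC, VIM and MSX2, while TWIST1, COL1A2, ALPL, DLX5, CDH11 and S100A6 had none. They lay at 2 of 7 epithelial genes (EPCAM and KRT8), at 0 of 7 blood cell genes and at 1 of 6 hepatocyte and neuron genes. CDKN2A and TERT, which U2OS does not use, had none. A gene without a member may still have an open start elsewhere, since some outermost annotated starts lie far from the promoter in use.

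After UV, the members stood lower in their lists, while their median fold enrichment was not lower. Without UV it was 8.85 and 10.0 in WT and 7.33 and 8.90 in ASH1L-/- cells. With UV it was 9.66 and 11.5 in WT and 10.1 and 9.76 in ASH1L-/- cells. At gene body sites it was 6.09, 7.48, 5.13 and 6.22 without UV and 7.31, 10.9, 8.07 and 8.16 with UV. Fold enrichment was not normalised between libraries. The median percentile was 89.9 and 89.1 in unchallenged WT cells and 86.5 and 81.5 in WT cells 3 h post UV. In the ASH1L-/- line it was 91.4 and 88.5 before irradiation and 85.8 and 87.6 after it. The 4 UV libraries all lay below the 4 unchallenged ones, and WT 3 h post UV replicate 2 was the lowest. The share of members in the top quartile of the list was between 75.5% and 87.3% without UV and between 63.5% and 77.5% with it, so the groups overlapped on that count.

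**Figure D1:**
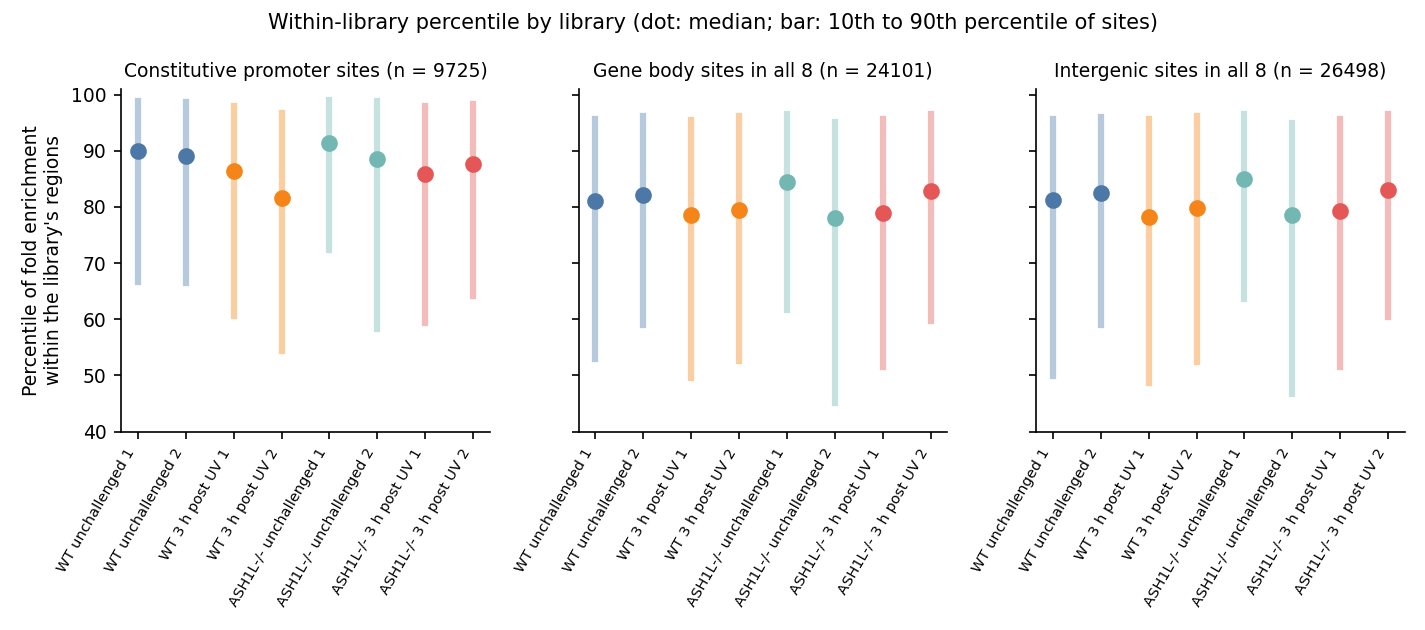
Percentile of fold enrichment (y axis, within each library's regions) in each library (x axis) for constitutive promoter sites, gene body sites and intergenic sites held by all 8 libraries. Dots are medians over sites and bars run from the 10th to the 90th percentile of the sites. The promoter medians lie between 81.5 and 87.6 after UV and between 88.5 and 91.4 without it, while the groups overlap in the other 2 panels.

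Gene body and intergenic sites moved less. Their medians overlapped between treatments, at 78.1 to 84.5 without UV and 78.5 to 82.8 with UV for gene bodies. The gap between the median member and the median gene body site was 8.85, 6.92, 6.86 and 10.4 points without UV. With UV it was 7.99, 2.02, 6.87 and 4.84 points, so the gaps overlapped between treatments. Ranked only among the sites held by all 8 libraries, the median member stood at 70.4, 66.4, 68.8 and 70.4 without UV. It stood at 65.3, 53.5, 63.2 and 61.2 with UV, and here the treatments did not overlap.

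The median UV difference over members was -2.93 percentile points, against -1.39 over all 60324 sites, -0.81 for gene bodies and -1.02 for intergenic sites. The 4 UV libraries were all below the 4 unchallenged ones at 1996 members (20.5%), against 12.3% of all sites held by all 8 libraries. They were all above at 115 members (1.18%), against a background of 5.99%. Within both genotypes taken separately, both UV libraries were below both unchallenged ones at 2704 members (27.8%), against 17.2% of all sites, and above at 180 (1.85%), against 8.80%. Without WT 3 h post UV replicate 2 the median difference was -1.89, and it was -1.89 to -3.79 over all 8 ways to leave out a library.

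The difference was seen at sites of like strength. Among sites with a mean percentile of 90 to 95, the median UV difference was -3.06 points in 1738 members, -0.35 in gene body sites and -0.13 in intergenic sites. All 4 UV libraries were lower at 23.8% of these members, at 11.5% of the gene body sites and at 10.3% of the intergenic sites. Between the percentiles 75 and 90 the medians were -5.06, -1.23 and -1.41. Between the percentiles 25 and 50 the 3 classes were closer, with -3.59 in members, -2.32 in gene body sites and -3.82 in intergenic sites. These are descriptions of these libraries, with no test of the difference between classes.

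**Figure D2:**
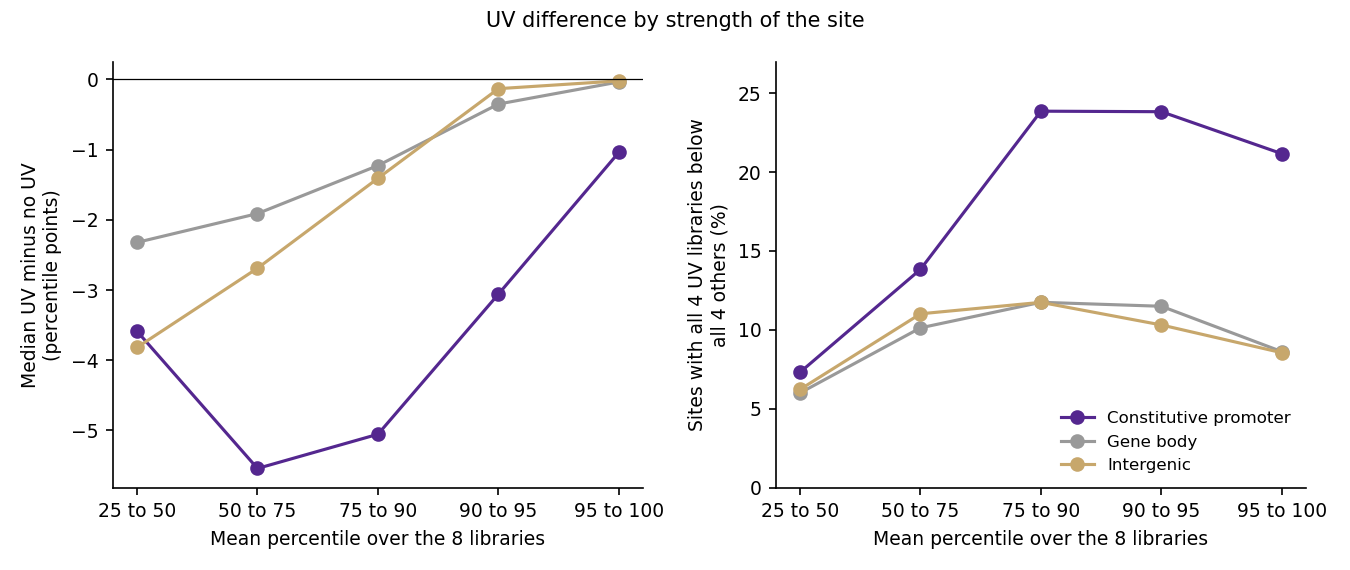
UV difference by strength of the site. The x axis gives bins of the mean percentile over the 8 libraries, and the y axes give the median UV minus no UV difference in percentile points (left) and the percent of sites with all 4 UV libraries below the other 4 (right). In the 4 bins from 50 upward the promoter sites show a larger fall and a larger share than the other classes, such as 23.8% against 11.5% and 10.3% in the bin of 90 to 95.

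The UV difference varied with the width of the member. Its median was -4.20 points for members under 400 bp of mean coverage, -1.82 for those of 600 to 800 bp and -8.10 for the 83 widest. All 4 UV libraries were lower at 47.0% of those 83 and at 8.68% of members under 400 bp. Members with TSSs on both strands were fully lower at 26.9%, against 19.8% of members with a single TSS.

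In the limma test across all 60324 sites, with Benjamini-Hochberg adjusted p below 0.05, 189 members were lower after UV (1.94%) and 22 were higher (0.226%). The same test called 2.75% of all sites lower and 1.94% higher. The share called lower was thus below the background share, although the share of members with all 4 UV libraries lower was above its background. These counts depended on single libraries. Without either ASH1L-/- 3 h post UV library 0 members and 0 of all sites were called. Without ASH1L-/- unchallenged replicate 2 the count was 2, against 0.449% of all sites. It was 32 without WT unchallenged replicate 1, against 2.5%, and 65 without WT unchallenged replicate 2, against 3.5%. It was 108 without WT 3 h post UV replicate 2, against 2.1%, and 1349 without WT 3 h post UV replicate 1, against 6.7%.

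By percentile among all regions of a library, the largest fall was at FN3KRP (chr17:82716237-82716929), which encodes a kinase that removes sugars bound to proteins. Its percentile was 82.4 and 74.0 in unchallenged WT and 29.2 and 16.8 in WT 3 h post UV. In ASH1L-/- cells it was 79.1 and 86.0 unchallenged and 7.65 and 0.645 post UV. All 4 UV libraries were far below the others, and the difference was -66.8 points (SE 9.10, limma adjusted p = 0.0231). The order depends on the scale. On ranks among the sites held by all 8 libraries FN3KRP differed by -42.2 points, and a number of called members fell further. These include ANXA2 (-62.1), GADD45A (-57.8) and ENSG00000289761 (-56.5), named after their values were seen, and MLYCD (-46.3).

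AQP1 (chr7:30911500-30911977), a water channel, stood at 56.5, 69.3, 72.8 and 63.1 without UV and at 29.5, 8.82, 1.66 and 4.87 with UV (-54.2 points, SE 10.9, limma adjusted p = 0.0323). On ranks among sites held by all 8 libraries its difference was -16.8 points. The site shared by PFN1, the actin-binding protein profilin, and the muscle enolase ENO3 went from 60.9, 76.5, 54.8 and 71.7 to 30.9, 5.04, 4.04 and 13.7. Its difference of -52.5 points passed (limma adjusted p = 0.0376), but on ranks among sites held by all 8 libraries it was -20.4 and did not pass. In both sites the UV libraries lay below every unchallenged library.

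The other 7 named falls ranged from -50.0 points at MARCHF4, a membrane-bound ubiquitin ligase, to -35.9 at GNPDA1, an enzyme of amino sugar metabolism. ASCC2, part of a complex with roles in alkylation repair and in ribosome rescue, fell by 48.8 points (SE 10.8, limma adjusted p = 0.0402). TMBIM6, an anti-apoptotic protein of the endoplasmic reticulum, fell by 37.0 points (SE 7.23, limma adjusted p = 0.0306), at a site shared with FMNL3. SH3BGRL3, MLYCD (malonyl-CoA decarboxylase) and S100A5 (a calcium-binding protein) completed the 10.

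Of the rises in percentile among all regions, that of TMEM235, a transmembrane protein gene (chr17:78230417-78231410), was the largest. Its percentile was 42.1, 39.998, 19.3 and 2.56 without UV and 72.4, 81.2, 49.6 and 58.0 with UV. The difference was 39.3 points (SE 9.44, limma adjusted p = 0.0469). On ranks among sites held by all 8 libraries it was 23.5 points, and of the named rises only that of FAM25A (22.3) was smaller. The largest on that scale were at GOLGA6L2 (65.2), SLAMF9 (58.6) and SBSN (50.5). ZBTB16, a zinc finger repressor, stood at 67.1 and 66.3 in unchallenged WT and 89.0 and 78.1 post UV. In ASH1L-/- cells it stood at 28.2 and 36.0 unchallenged and 69.9 and 78.1 post UV, so its UV libraries were also all higher (29.4 points, SE 6.55, limma adjusted p = 0.0403).

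SBSN, an epidermal secreted protein, was at 71.0, 70.5, 61.6 and 57.9 without UV and at 91.3, 90.2, 87.1 and 85.7 with UV (23.3 points, SE 4.37, limma adjusted p = 0.0284). KRTAP4-6, a hair keratin-associated protein, was at 85.0, 89.6, 80.5 and 84.1 without UV and at 98.2, 99.7, 99.0 and 99.0 with UV (14.2 points, SE 1.72, limma adjusted p = 0.0231). Both are genes of skin and hair. Both held the letters searched for AP-1, as TGAGTCA at SBSN and TGATTCA at KRTAP4-6 in the bases shown above. INO80, the ATPase of a nucleosome remodeller, rose by 18.9 points, TASOR, a subunit of the HUSH silencing complex, by 17.8 and NFKBIZ, an inducible regulator of NF-κB target genes, by 14.4. FAM25A, GOLGA6L2 and SLAMF9 rose by 36.5, 29.3 and 28.8 points. GOLGA6L2 has closely related copies, so its values are uncertain.

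**Figure D3:**
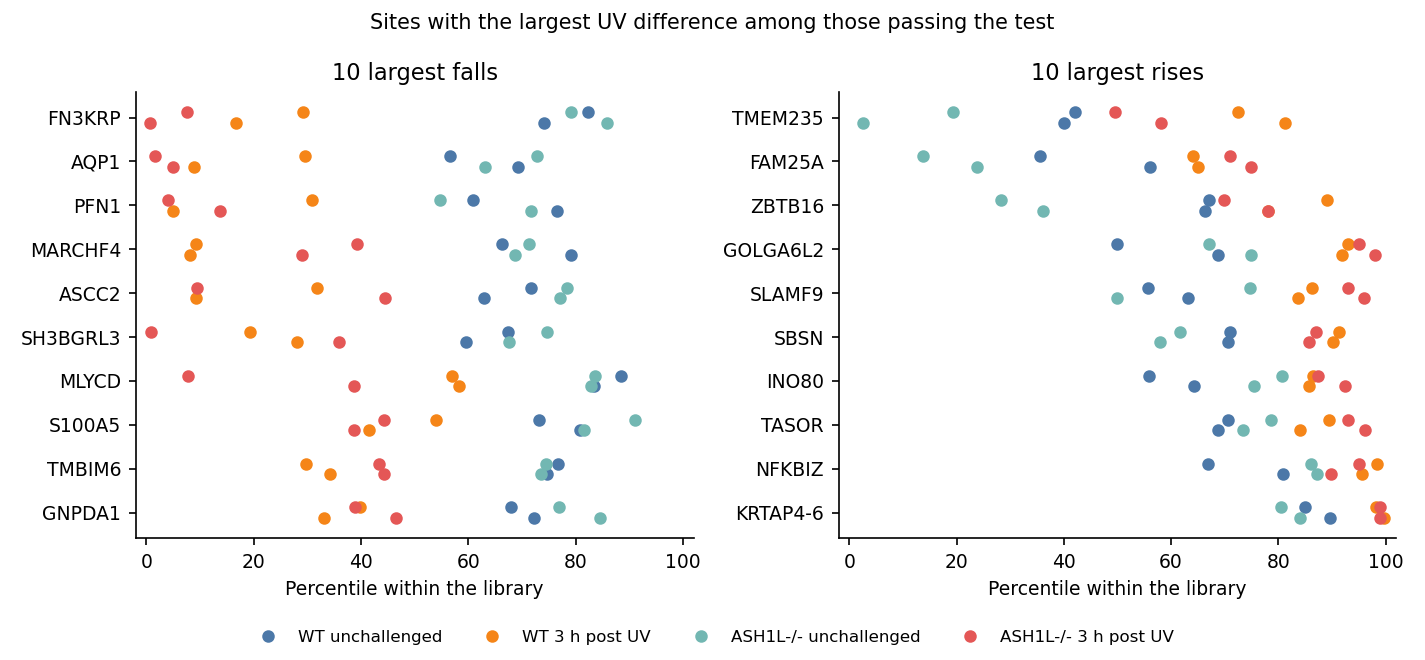
Percentile within the library (x axis) of the 10 members with the largest falls and the 10 with the largest rises among those passing the test, 1 dot per library, coloured by group. For every gene shown the 4 UV libraries lie on one side of the 4 unchallenged libraries, as at FN3KRP, where they run from 0.645 to 29.2 against 74.0 to 86.0.

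The sequence of the sites differed with the direction of the change. Motifs were searched on both strands in 300 bp around the summit: the GC box, CCAAT box and AP-1 letters given above, the NRF1 core GCGCATGCG and the cyclic AMP element TGACGTCA. The letters CCGGAAG stood for ETS factors, AAGATGGCG for YY1, CACGTG for the E-box and TATAAA for the TATA box. The AP-1 letters were in 12 of the 22 members called higher (54.5%), in 4.23% of those called lower and in 8.23% of all members. They were in 43.8% of gene body and 45.9% of intergenic sites held by all 8 libraries, and in 77.0% of the sites of those 2 classes called higher. In members with all 4 UV libraries lower the share was 5.51%.

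Members called higher were also poorer in CpG. The ratio of observed to expected CpG had a median of 0.42 in them, of 0.76 in members called lower and of 0.76 in all members. GC boxes were in 36.4% of those called higher, in 58.2% of those called lower and in 60.6% of all members. CCAAT boxes were in 43.1% of the members with all 4 UV libraries lower, in 34.4% of those called lower and in 36.6% of all members. Members with an AP-1 match had a median UV difference of -1.82 points, and those without it -3.02. A match is a description of the letters and says nothing about binding.

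**Figure D4:**
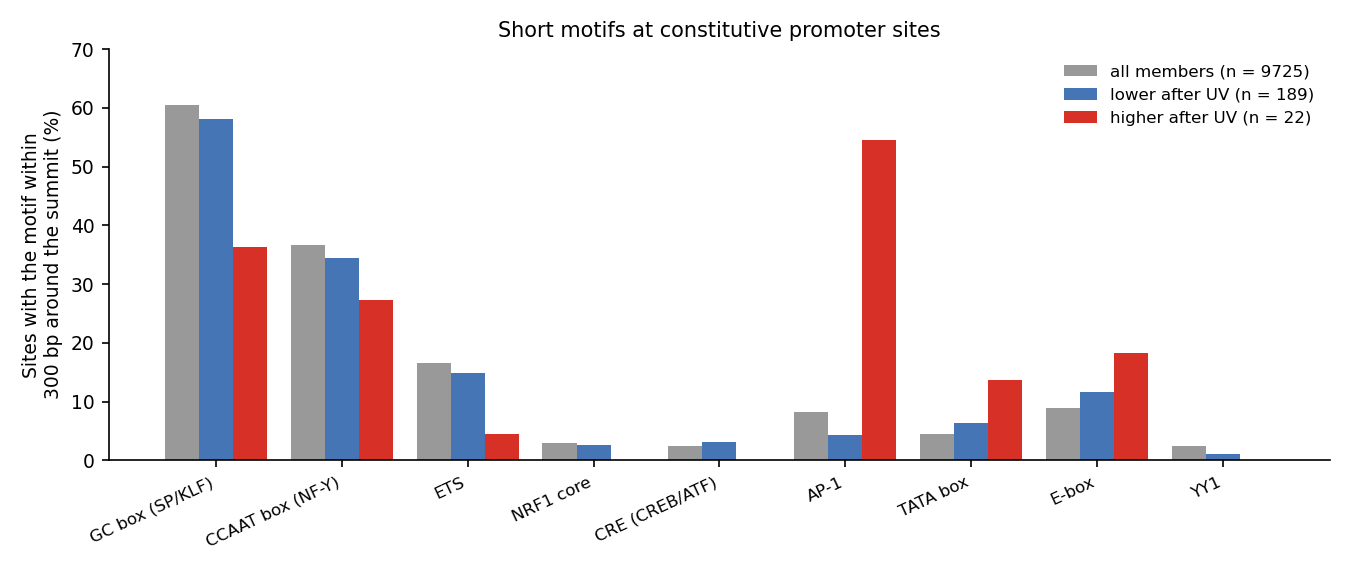
Percent of sites (y axis) that hold each motif (x axis) within 300 bp around the summit, for all members, those called lower and those called higher after UV. The AP-1 bar stands at 54.5% for the 22 higher sites, against 8.23% of all members.

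The median UV difference of members varied little with CpG content, while the shares of separated members did. Members with a CpG ratio under 0.4 had a median UV difference of -2.85 points, and those of 0.8 and over -2.97. All 4 UV libraries were higher at 4.68% and lower at 14.7% of the first, and higher at 0.446% and lower at 21.2% of the second. Among gene body and intergenic sites the corresponding medians were -0.56 and -2.84, so CpG-rich sites outside promoters had a difference near that of the members. At a mean percentile of 90 or over, CpG-rich members were fully lower at 23.2% and CpG-rich other sites at 15.1%.

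After UV the members also covered more bases. The median covered width was 657 and 666 bp in unchallenged WT, 692 and 631 bp in unchallenged ASH1L-/-, 717 and 829 bp in WT 3 h post UV, and 735 and 763 bp in ASH1L-/- 3 h post UV. All 4 UV libraries were wider, and WT 3 h post UV replicate 2 was the widest. The mean number of summits per member was 2.01 to 2.2 without UV and 2.30 to 2.60 with UV.

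Much of this widening was shared by other sites. The median log2 difference was 0.16 over members and 0.13 over all sites, and it was 0.03 for members once each library was centred on its own median. All 4 UV libraries were wider at 1705 members (17.5%), against 12.8% of all sites, and narrower at 35 (0.36%), against 1.19%. In limma, 144 members were wider (1.48%), against 0.826% of all sites, and 0 were narrower, against 0.0763%. At an unadjusted p below 0.05 in either direction were 2295 of 9725 members, against 11373 of 60324 sites. The count of calls was 0 without WT unchallenged replicate 1, either WT 3 h post UV library, ASH1L-/- unchallenged replicate 2 or either ASH1L-/- 3 h post UV library. It was 501 without ASH1L-/- unchallenged replicate 1, against 4.1% of all sites.

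The 5 largest widenings were at PCSK7, MAN2B1, RBMX2, EMILIN2 and CNTNAP1. The site of PCSK7, a proprotein convertase, shared with RNF214, covered 205, 243, 162 and 151 bp without UV and 790, 709, 620 and 642 bp with UV. Its log2 difference was 1.88 (SE 0.15, limma adjusted p = 0.0261), and no UV library overlapped the others. MAN2B1, a lysosomal mannosidase, at a site shared with WDR83, covered 250, 221, 251 and 221 bp without UV and 789, 1028, 650 and 885 bp with UV (log2 difference 1.81, SE 0.16, limma adjusted p = 0.0267). RBMX2 (an RNA-binding protein), EMILIN2 (an extracellular matrix glycoprotein) and CNTNAP1 (a protein of myelinated axons) widened by 1.69, 1.56 and 1.55 on the log2 scale.

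By sign of the difference, 79.0% of members were lower in percentile, 87.0% were wider and 67.6% were both. Of the 189 members called lower, 128 (67.7%) were wider, a smaller share than of all members. Of the 144 called wider, 104 (72.2%) were lower, also a smaller share than of all members, and 61 still passed on centred widths. Called both lower and wider were 5 members.

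Without centring on each library, the widening was larger on the transcribed side, and no test between the sides was run. In 5184 members with a single TSS and a single interval in every library, the downstream edge lay a median of 242, 241, 254 and 232 bp from the TSS without UV. It lay at 261, 300, 266 and 278 bp with UV, so the treatments did not overlap. The upstream edge lay at 359, 355, 364 and 348 bp without UV and at 356, 388, 364 and 373 bp with UV, and there the treatments overlapped. Per site, the downstream edge moved outward by a median of 27 bp (83.4% of sites) and the upstream edge by 13 bp (68.6%). The difference between them had a median of 15 bp and was positive at 61.8% of these sites. The summit moved by a median of 1.25 bp.

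**Figure D5:**
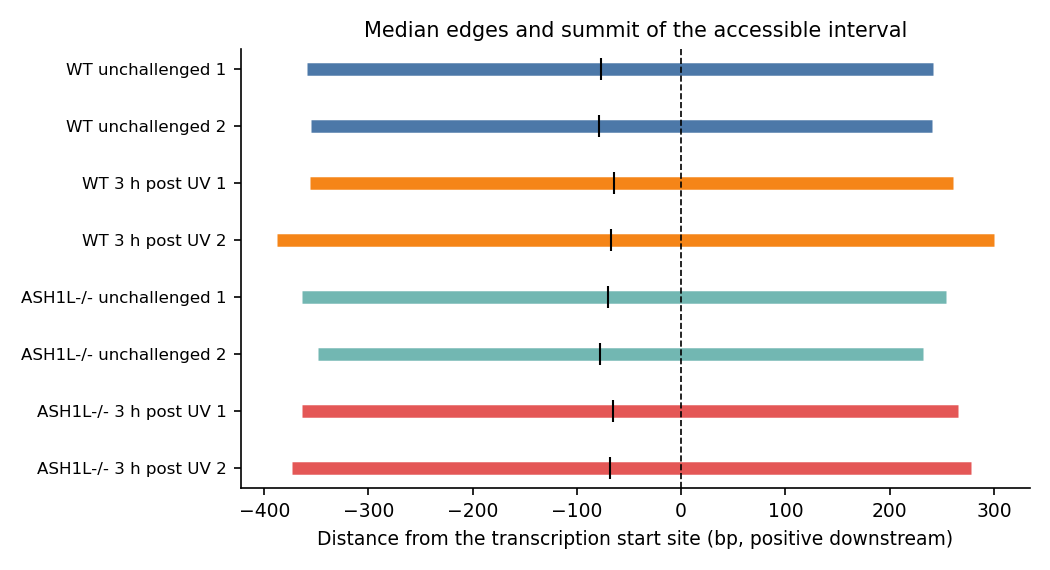
Median position of the accessible interval around the TSS (x axis, bp, positive downstream) in each library (y axis) for 5184 members with a single TSS and interval. Bars run from the median upstream to the median downstream edge, ticks mark the median summit and the dashed line the TSS. The downstream ends lie at 261 to 300 bp after UV and at 232 to 254 bp without it.

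Genes of nucleotide excision repair had strong promoter sites. Members lay at 7 of 8 genes of damage recognition in global-genome repair, and DDB1 had none. Those 7 had a median percentile of 92.4 and a median UV difference of -4.54 points. All 7 were lower by difference (79.0% of all members were), 4 were fully lower (20.5% of all members) and 1 was called (1.94%). These shares over all members apply to the counts of the other gene lists too. That was RBX1, the RING subunit of the CUL4 ubiquitin ligases, at 98.8, 98.1, 98.1 and 98.1 without UV and 94.5, 93.8, 93.3 and 93.3 with UV (-4.54 points, SE 0.849, limma adjusted p = 0.0284). DDB2, which binds UV lesions, stood at 90.6, 91.9, 95.3 and 94.7 without UV and 87.3, 76.8, 84.5 and 89.7 with UV, fully lower but not passing (limma adjusted p = 0.0968). XPC, the lesion sensor, overlapped between treatments. Of 17 genes of TFIIH and excision 16 had a member, with a median UV difference of -0.85 points and 0 called, and of 6 of transcription-coupled repair 4 had a member, 0 of them called.

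ASH1L, its partners and the histone chaperone FACT had members at 4 of 5 genes. MORF4L1, the gene of the ASH1L partner MRG15, had none. SUPT16H, a subunit of FACT, stood at 97.4, 97.1, 98.6 and 99.1 without UV and 92.9, 92.4, 95.9 and 95.9 with UV (-3.77 points, SE 0.826, limma adjusted p = 0.0387). The promoter of ASH1L itself stood at 91.9 and 93.7 in unchallenged WT, 87.5 and 81.1 in WT 3 h post UV, 97.6 and 93.9 in unchallenged ASH1L-/- and 90.9 and 89.1 in ASH1L-/- 3 h post UV. It was fully lower after UV but did not pass (limma adjusted p = 0.0742), and an open promoter does not check a genotype made inside the gene. SSRP1, the other subunit of FACT, overlapped between treatments. Members lay at 9 of 10 genes of H3K4 methyltransferase complexes, with 3 fully lower and 0 called.

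Stress-response genes differed among themselves. Among p53 targets 21 of 25 had a member, and CDKN1A, TP53I3, FAS and TIGAR had none. Of these 21, 7 were fully lower and 1, ZMAT3, was fully higher. GADD45A, a growth arrest gene, went from 90.1, 94.8, 95.8 and 92.7 to 73.3, 52.4, 69.0 and 65.1, the only one of the list called lower (-28.4 points, SE 5.30, limma adjusted p = 0.0284). MDM2, the ubiquitin ligase of p53, differed by 1.33 points (SE 3.16). BAX, a pro-apoptotic protein, widened by 0.70 on the log2 scale (limma adjusted p = 0.0496), and did not pass on centred widths (limma adjusted p = 0.0967).

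Immediate-early and AP-1 genes had 22 members among 30 genes, with a median UV difference of -7.13 points. Of these 10 were fully lower, against 20.5% of all members, and 0 were called lower. The JUNB site, of an AP-1 subunit, stood at 69.97, 64.85, 82.3 and 82.1 without UV and 33.3, 49.4, 59.4 and 63.3 with UV, fully lower but not passing (limma adjusted p = 0.0738). FOSB, among the narrowest members, stood at 79.5, 72.3, 72.3 and 63.1 without UV and 62.7, 34.8, 49.4 and 51.2 with UV and did not pass (limma adjusted p = 0.126). IER3 was called wider (log2 difference 0.56, SE 0.07, limma adjusted p = 0.0408), but not on centred widths (limma adjusted p = 0.100).

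All 11 genes of the integrated stress response had a member. XBP1, a transcription factor of the unfolded protein response, went from 96.5, 92.2, 96.4 and 92.8 to 76.8, 72.7, 88.0 and 85.6 (-13.7 points, SE 2.60, limma adjusted p = 0.0286). TRIB3, a pseudokinase, went from 90.9, 97.0, 92.0 and 95.9 to 84.0, 82.3, 76.6 and 80.8 (-13.1 points, SE 2.71, limma adjusted p = 0.0346). PPP1R15A, which restores translation, had a difference of -28.8 points with no overlap, just outside the threshold (limma adjusted p = 0.0503). CHAC1 differed by 2.34 points and did not pass.

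Of 21 genes of TFIID and the general initiation factors 19 had a member and 1 was called lower, TBP, the TATA-binding protein (-4.95 points, limma adjusted p = 0.0481). TBP shares this site with the proteasome gene PSMB1, so it counts in both lists. TAF3, a TFIID subunit that reads H3K4me3, was called wider (log2 difference 0.68, SE 0.08, limma adjusted p = 0.0370), but not on centred widths (limma adjusted p = 0.0688), while its percentile differed by -0.02 points (SE 6.27). Of 12 RNA polymerase II genes 9 had a member and 0 were called.

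For large housekeeping families the shares over all members to set beside the counts are 79.0% lower and 87.0% wider by difference. Ribosomal protein genes had members at 79 of 86 genes, with a median UV difference of -3.27 points, 69 lower by difference, 23 fully lower and 2 called, RPS4X and RPS26. Their median log2 width difference was 0.20, and 28 were fully wider. Proteasome genes had members at 32 of 39, with 12 of 31 sites fully lower and 3 called. Mitochondrial ribosomal proteins had 71 of 78 genes and 3 sites called lower, and respiratory complex I had 34 of 37 and 1, NDUFC1.

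Replication-dependent histone genes encode the histones made in S phase. Members lay at 36 of 69 such genes, in 27 distinct sites, since many share a promoter. Their median UV difference was -8.10 points, and their median log2 width difference was -0.09, with 9 of 27 sites wider by difference. The site shared by H2AC7 and H2BC7 stood at 83.5, 79.0, 94.2 and 84.3 without UV and 72.6, 56.5, 68.7 and 67.8 with UV and did not pass (limma adjusted p = 0.0731). Zinc finger genes named ZNF had members at 385 of 508 genes, in 373 sites, with a median UV difference of -1.07 points, 6 called lower and 1 higher.

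Few members separated by genotype. The median difference of ASH1L-/- minus WT was 1.10 percentile points, and 0 members passed in limma. At an unadjusted p below 0.05 were 477 of 9725 members, against 5598 of 60324 sites. All 4 ASH1L-/- libraries were above at 173 members (1.78%) and below at 73 (0.751%), against 2.57% and 1.51% of all sites. For width 0 members passed, with 547 at an unadjusted p below 0.05, against 4322 of 60324 sites. All 4 ASH1L-/- libraries were wider at 73 members (0.751%), against 1.22%, and narrower at 112 (1.15%), against 1.76%.

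The members nearest to a genotype call were DYRK1B, ZNF300 and TRIOBP for the percentile, and none of them passed. DYRK1B, a protein kinase, stood at 39.8, 42.3, 53.8 and 28.7 in WT and at 93.4, 96.8, 81.0 and 84.7 in ASH1L-/- cells, in the order of unchallenged and then UV libraries (47.8 points, SE 7.19, limma adjusted p = 0.194). TRIOBP, an actin-binding protein, stood at 46.5, 1.38, 48.1 and 63.1 in WT and between 90.5 and 92.7 in ASH1L-/- cells (limma adjusted p = 0.246). In both the genotypes did not overlap. For width the lowest p values were at SYT10, CD34 and MARK1. SYT10, a synaptotagmin, covered 771, 870, 940 and 1428 bp in WT and 186, 170, 722 and 793 bp in ASH1L-/- cells (log2 difference -1.41, limma adjusted p = 0.173).

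The UV difference was not shown to depend on ASH1L. Its median over members was -4.03 points in WT and -1.93 in ASH1L-/- cells. In the limma test of the difference between genotypes 0 members passed. At an unadjusted p below 0.05 were 196 of 9725 members, against 1766 of 60324 sites. The median of that contrast, ASH1L-/- minus WT, was 1.78 points with all libraries and -0.10 without WT 3 h post UV replicate 2. The UV libraries moved up in WT and down in ASH1L-/- cells at 58 members (0.596%), against 0.706% of all sites, and the opposite way at 146 members, 1.50% both of members and of all sites. Within a genotype 0 members passed. At an unadjusted p below 0.05 were 1931 of 9725 members in WT, against 10519 of 60324 sites. In ASH1L-/- cells there were 654 members, against 7870 sites. For width the median log2 UV difference was 0.17 in WT and 0.13 in ASH1L-/- cells. For that contrast 0 members passed, with 364 at an unadjusted p below 0.05, against 2306 of 60324 sites.

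The lowest p for that contrast were at HAPLN2, CCDC124 and ANAPC1 for the percentile and at ACBD3, TMEM164 and PPM1H for the width, and none passed. CCDC124, a ribosome-associated protein, stood at 99.3 and 97.1 in unchallenged WT and 80.3 and 77.5 post UV, and at 97.5 and 99.0 in unchallenged ASH1L-/- and 92.1 and 92.2 post UV. Its UV difference over both genotypes was -12.7 points (SE 1.57, limma adjusted p = 0.0231). The UV difference in ASH1L-/- cells minus that in WT was 13.1 points (SE 3.13, limma adjusted p = 0.9999). ACBD3, a Golgi protein, covered 450 and 459 bp in unchallenged WT and 945 and 1081 bp post UV, and between 593 and 621 bp in all 4 ASH1L-/- libraries.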

How the data were processed

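Peak lists were used as deposited. Per the labels and the methods, the authors trimmed reads with cutadapt 1.9.1, aligned them to hg38 without chromosome Y (Bowtie2 2.4.5), removed duplicates, poorly mapped, blacklisted and mitochondrial reads (SAMtools 1.7, bedtools 2.29.2, Picard) and called peaks per library with MACS2 2.2.7.1. The deposited fold enrichment (a ratio to local background), −log10 p-values and −log10 q-values were not normalised between libraries, and the deposited score was not used. The lists reach a p-value of 0.01. They carry no read counts, so depth is relative and counting intervals were not computed.

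Sites, percentiles and covered bases were computed in Python 3.11.15 with GENCODE release 44 and hg38. A site was named for the nearest gene-level TSS. Percentiles and log2 covered bases were tested with limma 3.58.1 (intensity trend, 4 group means, all 8 libraries) over 60324 sites, with Benjamini-Hochberg adjustment over all of them. The script was tested on simulated data. Named members were the 10 largest rises and 10 largest falls (5 for width) that passed without overlap of the treatments, the 3 of lowest p where none passed, the 10 strongest, 10 widest and 5 narrowest, and list genes. The members, lists, motifs and tests were chosen with earlier results of these data known. Alternatives are given in the closing section.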

Additional observations from a re-analysis of the deposited data

Results flagged for a closer look

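At 3 sites that the report names, both UV libraries of WT moved one way and both of ASH1L-/- cells the other. The HAPLN2 site, near a gene of a hyaluronan-binding link protein, stood at 28.3 and 23.5 in unchallenged WT and 68.8 and 49.3 post UV, and at 74.6 and 68.8 in unchallenged ASH1L-/- and 23.8 and 26.8 post UV, a difference between the UV effects of -79.6 points. The SLC16A7 site differed by 12.2 points and the ANAPC1 site, of a subunit of the anaphase-promoting complex, by 6.0 points. None of the 3 passed the limma test of the difference.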

How the results depend on the processing

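The number of constitutive promoter sites stayed within 1.5 times of 9725 under every alternative, from 7167 where the intervals of every library had to cover at least 50% of the site to 14145 with any transcript TSS, and 9752 to 10036 when a library was left out. The count of members called for the UV percentile, 211, was 619 with ranks among sites held by all 8 libraries (112 higher, 507 lower), 93 with ranks among all records (24 higher, 69 lower), 1724 with centred log2 fold enrichment (1622 of them lower), 680 with the logit (48 higher, 632 lower), 127 with a q-value below 0.05 (28 higher, 99 lower), 140 with depth as a covariate, 343 with any transcript TSS (64 higher, 279 lower) and 116 with the replicate block. Leaving out a library gave 0 to 1349. Without ASH1L-/- unchallenged replicate 1 there were 79 higher and 73 lower, against 6.8% of all sites. Without WT unchallenged replicate 2 there were 30 and 35, against 3.5%. Without WT 3 h post UV replicate 1, which gave 1349, 6.7% of all sites were called, a smaller share than of members. The count for UV width, 144, against 0.902% of all sites, was 64 with widths centred on each library, against 0.575%. It was 73 with 50% of the site covered, against 0.602%, 0 with the replicate block, and 0 to 501 when a library was left out. The genotype percentile count, 0, was 3 with ranks among sites held by all 8, against 0.181% of all sites. It was 22 with centred log2 fold enrichment, against 1.15%, and 2 with the logit, against 0.129%. It was 0 to 4 when a library was left out, with 0.338% of all sites called where it was 4. The genotype width count was 1 with centred widths, against 0.01% of all sites, and 0 when any library was left out. The contrasts of UV by genotype gave 0 throughout. The cause of these changes was not tested. The median UV difference of the percentile over members stayed negative in all of these.

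Replicate numbers did not pair the libraries: deviations of libraries with the same number correlated at -0.122 to 0.078, so the replicate block is not read further. Of the 25 largest rises, falls and widenings named for UV, 24 still passed in the same direction on ranks among sites held by all 8 or on centred widths, and PFN1, at -20.4 points, did not pass. BAX, IER3 and TAF3, named from gene lists, did not pass on centred widths. With 2 libraries a group and no read counts, differences that were small against the spread between libraries could not be detected.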
